A study of Rattus norvegicus with 20 samples.

Results

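The phagocyte NADPH oxidase was described through the transcripts of 5 of its subunits in rat blood: Cybb, Cyba, Ncf1, Ncf4 and Rac2. They were chosen by gene name in the scanner files, and all 5 were among the 15232 genes tested. Blood came from 20 Wistar rats, with 4 rats in each of 5 groups and 1 array per rat. Reflux esophagitis had been induced by surgery in 4 of the groups. These received omeprazole, a proton pump inhibitor, at 30 mg/kg, STW5, a mixture of medicinal plant extracts, at 0.5 ml/kg or at 2 ml/kg, or no treatment. The last group was sham operated. Dosing began 7 days ahead of surgery and went on for 10 days afterwards. Blood was drawn into PAXgene tubes, which stabilise RNA of all blood cells without sorting. Surgery of this kind models the esophageal lesion of reflux, so blood was a remote tissue here.

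The oxidase makes superoxide inside the phagosome of neutrophils, monocytes and macrophages. Its membrane part, cytochrome b558, is a pair of proteins: gp91phox, encoded by Cybb, carries electrons across the membrane, and p22phox, encoded by Cyba, stabilises it. On activation a cytosolic complex that includes p47phox (Ncf1) and p40phox (Ncf4) moves to the membrane together with the small GTPase Rac2, and electron flow from NADPH to oxygen begins. Loss of a phox subunit causes chronic granulomatous disease in humans.

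Each subunit was read by 1 probe of 60 bases, printed in 2 spots. The probes are shown because all values below rest on them. Where in the transcript each one lies was not looked up, and a match to the hexamer named below is a description only. Positions are those of the scanner files in rn4. The Cybb probe lies on the minus strand at chrX:25518505-25518564 and the Ncf4 probe on the plus strand at chr7:116190216-116190275, and neither contains the polyadenylation hexamer AATAAA. The probes of Cyba (minus strand, chr19:52713156-52713215), Ncf1 (plus strand, chr12:23587232-23587291) and Rac2 (minus strand, chr7:116520067-116520126) each contain it once, and 30 bases around it are given with the hexamer in capitals.
Cybb: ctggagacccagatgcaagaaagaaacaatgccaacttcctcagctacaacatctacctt
Ncf4: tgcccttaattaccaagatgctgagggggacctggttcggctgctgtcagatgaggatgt
Cyba: tgatgcccactgtAATAAAcatggttaata
Ncf1: aagtgtaatcggAATAAAccctttcctccc
Rac2: gcttatgcagaaAATAAAtgtgttgattct

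Promoters are shown as a description only, and their part in the levels was not tested. RefSeq promoters of the build GRCr8 were found for 3 of the 5 subunits, Cybb, Cyba and Ncf1, and not for Ncf4 or Rac2. The 250 bases before the start that RefSeq's promoter table uses are given. For Ncf1 the last 69 of them lie inside the gene as annotated in the same build, and for Cybb and Cyba none do. Capitals mark any match, on either strand, to 4 motifs: GAGGAA, the core bound by PU.1; a pair of GAAA with any 2 bases between them, an element of interferon regulatory factors; GGGCGG, a GC box; and TATAAA. The windows are chrX:16065066-16065315 (minus strand) for Cybb, chr19:67404215-67404464 (minus strand) for Cyba and chr12:28121635-28121884 (plus strand) for Ncf1.
Cybb: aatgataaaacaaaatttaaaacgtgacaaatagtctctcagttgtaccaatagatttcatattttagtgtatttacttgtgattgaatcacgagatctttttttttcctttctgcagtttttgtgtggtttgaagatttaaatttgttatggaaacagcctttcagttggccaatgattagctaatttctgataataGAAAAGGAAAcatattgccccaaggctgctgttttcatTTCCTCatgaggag
Cyba: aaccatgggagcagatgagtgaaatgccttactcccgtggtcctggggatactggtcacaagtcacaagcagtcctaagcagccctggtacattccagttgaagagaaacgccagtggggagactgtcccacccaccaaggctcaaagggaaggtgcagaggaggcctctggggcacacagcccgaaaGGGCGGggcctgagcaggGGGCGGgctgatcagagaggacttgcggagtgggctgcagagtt
Ncf1: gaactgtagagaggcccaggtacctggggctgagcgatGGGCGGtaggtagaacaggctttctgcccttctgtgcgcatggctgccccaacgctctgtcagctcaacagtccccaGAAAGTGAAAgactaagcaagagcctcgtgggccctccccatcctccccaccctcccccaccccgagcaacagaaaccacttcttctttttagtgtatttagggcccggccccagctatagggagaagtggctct
The Cybb window held GAGGAA on the minus strand, its first base on the plus strand 14 bases before the start, and a GAAA pair 52 bases before it. The Ncf1 window held a GAAA pair 135 bases before the start and 1 GC box, and the Cyba window held 2 GC boxes. None of the 3 held TATAAA. Of all 33469 rat promoters in the table, 23.3% held GAGGAA, 3.4% held the GAAA pair, 30.5% held GGGCGG and 12.9% held TATAAA. The motifs did not overlap each other in these windows.

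A level is the log2 of a gene's intensity divided by the 75th percentile of its array, which ranged over 71.3 to 308 intensity units. It compares a gene across arrays and not one gene with another. All 5 subunits were well above background on all 20 arrays, and no spot of theirs was saturated. The 2 spots of a probe differed by a median of 0.03 to 0.14 on the log2 scale, most for Cybb. Erythroid, T-cell, B-cell, monocyte and neutrophil markers were all detected in every group of this whole blood. Untreated array 1 stood near sham, with a mean correlation across genes of 0.984 to the sham arrays and 0.92 to its own group. Untreated array 2 stood apart, with a mean T-cell marker level of -2.52 and a B-cell level of -2.24, relative to their means over all arrays. The untreated minus sham counts of the subunits and of the gene lists are given with and without these arrays. Sham and untreated arrays shared slide 1, slide 2 held all STW5 arrays and slide 3 those of omeprazole, so an effect of the slide and one of the treatment cannot be told apart where treated rats are set against others. The titles and the design text number the STW5 dose groups in opposite order, and the titles were followed.

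**Figure D1:**
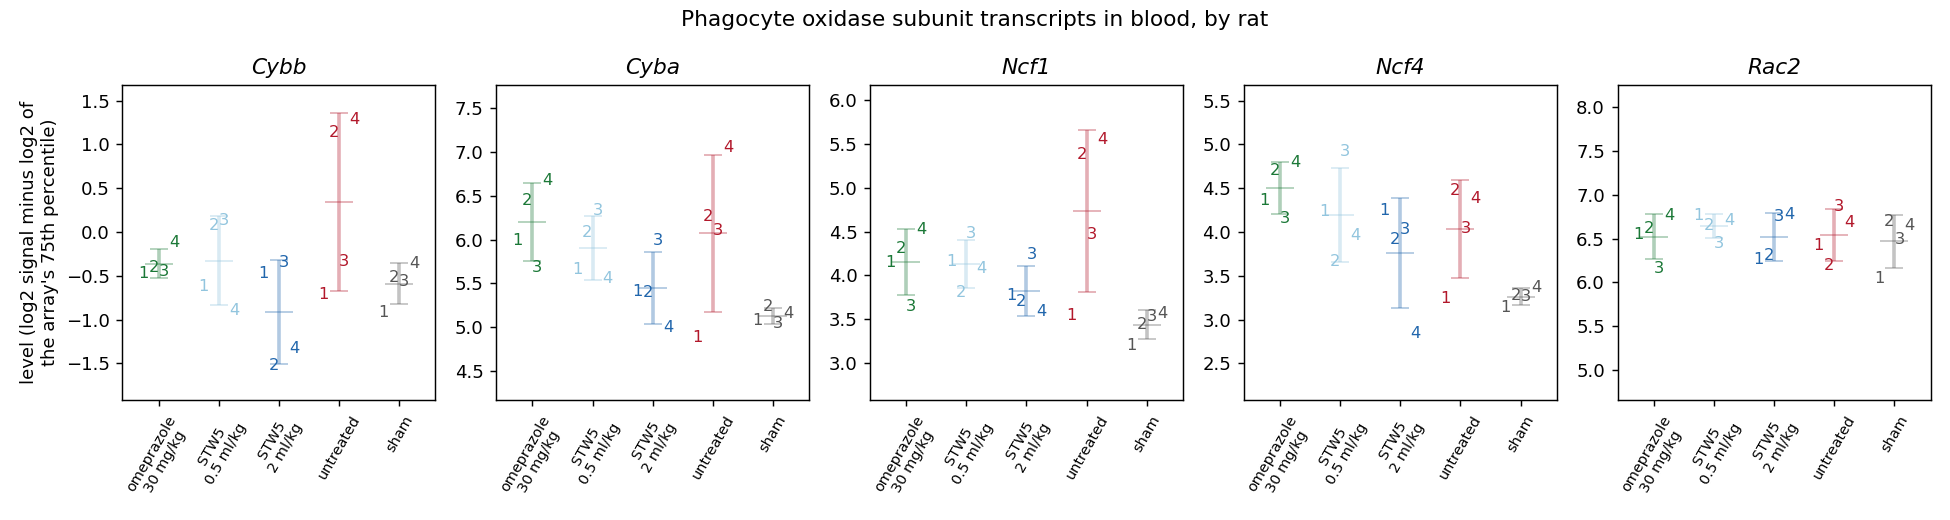
Level of each subunit (log2 of intensity over the 75th percentile of the array) in the 5 groups. Digits are single rats by replicate number, and bars are the mean ± SD of 4 rats. All panels span the same number of log2 units. Of 4 untreated rats, 3 lie above all sham rats for Cybb, Cyba, Ncf1 and Ncf4, untreated rat 1 lies with sham, and Rac2 is level across groups.

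Untreated rats were set against sham rats first, to see what reflux alone did to these transcripts. Transcripts of 4 subunits lay 0.78 to 1.30 log2 units higher in untreated rats, but on 3 of the 4 arrays only, and none passed the test. The GTPase gene Rac2 lay at the sham level. For the electron-carrying subunit Cybb, untreated arrays 1 to 4 had levels of -0.71, 1.14, -0.34 and 1.28, against -0.92, -0.52, -0.56 and -0.36 on the sham arrays. Untreated arrays 2 and 4 were far above sham, array 3 was barely above the highest sham array and array 1 was among them. The log2 change was 0.93 ± 0.40 (standard error, limma, adjusted p = 0.261).

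Its partner Cyba showed the same order of arrays. Levels were 4.88, 6.26, 6.10 and 7.05 on untreated arrays 1 to 4, against 5.07, 5.24, 5.04 and 5.16 on sham arrays. Array 1 was below every sham array and the other 3 were above every one, and the change was 0.95 ± 0.35 (limma, adjusted p = 0.247).

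Ncf1, the organiser that brings the cytosolic complex to the cytochrome, had levels of 3.54, 5.38, 4.47 and 5.55 on untreated arrays, against 3.20, 3.44, 3.53 and 3.57 on sham arrays. Again 3 of 4 untreated arrays lay above all sham arrays and array 1 among them. The change was 1.30 ± 0.34 (limma, adjusted p = 0.243).

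Ncf4, whose p40phox binds phosphatidylinositol 3-phosphate on phagosomes, had levels of 3.24, 4.48, 4.04 and 4.38 on untreated arrays, against 3.14, 3.28, 3.26 and 3.37 on sham arrays. Arrays 2 to 4 lay above all sham arrays and array 1 among them, and the change was 0.78 ± 0.33 (limma, adjusted p = 0.261).

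Rac2, the blood-cell Rac that switches the complex on, had levels of 6.42, 6.19, 6.87 and 6.68 on untreated arrays, against 6.04, 6.69, 6.49 and 6.65 on sham arrays. The groups overlapped throughout. The change was 0.07 ± 0.22, with a 95% interval of -0.39 to 0.53 (limma, adjusted p = 0.849).

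By limma 0 of the 5 subunits passed an adjusted p below 0.05, where 0.00657% of all genes did (1 of 15232). At an unadjusted p below 0.05, 4 of 5 were higher, where 8.15% of all genes were. The median change over the 5 was 0.93, and over all genes tested -0.19. The sham arrays were close together (SD 0.09 to 0.30) and the untreated arrays were not (SD 0.90 for Cyba, 0.93 for Ncf1, 1.01 for Cybb). With untreated array 1 left out, 4 of 5 subunits passed, where 12% of all genes did (1831 of 15232). The changes were then 1.28 for Cybb, 1.34 for Cyba, 1.70 for Ncf1 and 1.04 for Ncf4 (limma, adjusted p = 0.0411, 0.0164, 0.00335 and 0.0457). With untreated array 2 alone left out 0 passed, and the changes were 0.67, 0.88, 1.08 and 0.63 (limma, adjusted p = 0.314, 0.218, 0.2 and 0.285). Without untreated arrays 1 and 2 together, chosen after seeing the data, Cyba (1.45) and Ncf1 (1.57) passed, where 29% of all genes did. Erythroid, T-cell and B-cell markers lay lower in the same comparison, where 37.9% of all genes were higher. Lower in untreated rats were 14 of 14 erythroid markers (median -1.17), 15 of 16 T-cell markers (median -0.96) and 14 of 14 B-cell markers (median -0.78). By limma 0 passed, and 7, 8 and 4 were lower at an unadjusted p below 0.05, where 10.1% of all genes were. With untreated array 1 left out the counts passed as lower were 4, 7 and 2, where 6.17% of all genes did. With array 2 left out 0 passed, the lower counts were 14, 13 and 8, and the medians -1.56, -0.38 and -0.21. With both left out 13, 4 and 2 passed as lower and 1 B-cell marker as higher, where 19.3% of all genes were called lower. Of 13 platelet markers 9 were higher (median 0.31). The part of these markers in the subunit changes was not tested.

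**Figure D2:**
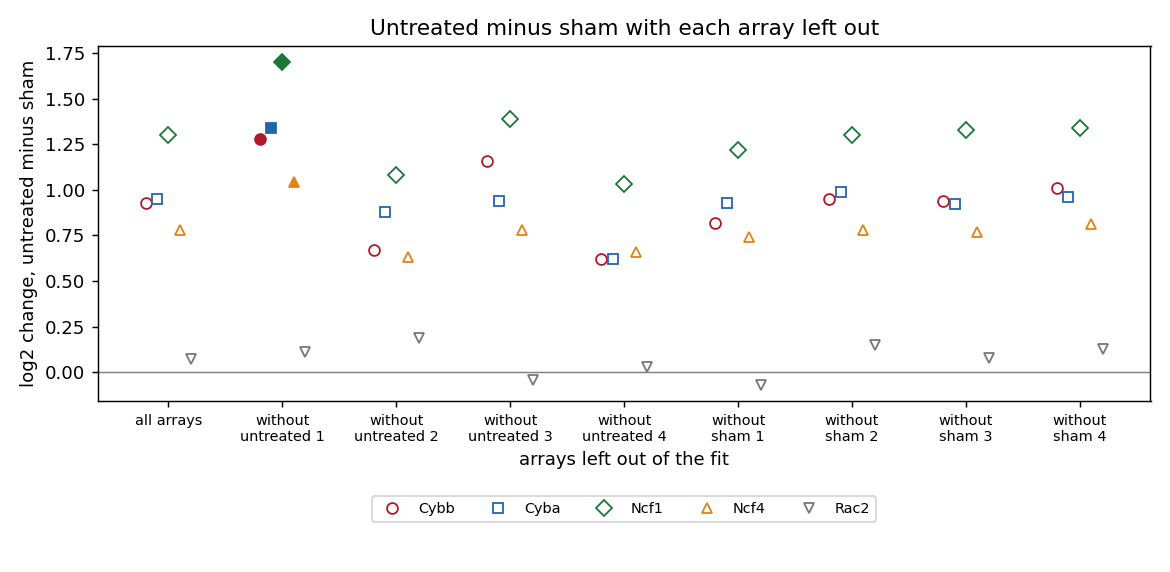
Log2 change of each subunit, untreated minus sham, fitted on all arrays and with each untreated or sham array left out. Filled symbols had an adjusted p below 0.05 by limma. Only the fit without untreated array 1 has filled symbols, and Rac2 stays near 0 in every fit (-0.07 to 0.19).

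Omeprazole-treated rats were compared with sham rats to see which subunits differed from the sham-operated state under the drug. Ncf4 rose, Cyba and Ncf1 lay above sham on every omeprazole array without passing, and Cybb and Rac2 were near sham. The Ncf4 levels on omeprazole arrays 1 to 4 were 4.36, 4.70, 4.15 and 4.80, against 3.14, 3.28, 3.26 and 3.37 on sham arrays. The groups did not overlap, and the log2 change was 1.24 ± 0.33 (2.36-fold, limma, adjusted p = 0.033). This was the single call among the 5 subunits, where 0.742% of all genes were called higher and 4.73% were called in either direction. It ended without any 1 of the 4 sham arrays and without omeprazole array 2 or 4 (adjusted p = 0.0653 to 0.128), with no filter on dim probes (0.0737) and with neutrophil markers as a covariate (change 0.78, adjusted p = 0.207). The rise was not particular to Ncf4. In the same comparison 16 of 17 neutrophil markers were higher (median 1.43), where 41.8% of all genes were, and 5 of them passed as higher.

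Cyba had levels of 5.99, 6.44, 5.68 and 6.67 on omeprazole arrays, against the sham range of 5.04 to 5.24, and a change of 1.07 ± 0.35 (limma, adjusted p = 0.0973). Ncf1 had levels of 4.15, 4.31, 3.64 and 4.52 on omeprazole arrays, against a sham range of 3.20 to 3.57, and a change of 0.72 ± 0.34 (limma, adjusted p = 0.34). Both genes were above all sham arrays on all 4 omeprazole arrays, as was Ncf4, and 6.81% of all genes had that order. For Cybb, omeprazole levels were -0.47, -0.41, -0.45 and -0.12, which overlapped sham, and the change was 0.23 ± 0.40 (95% interval -0.60 to 1.05). Rac2 lay at 0.06 ± 0.22. The median of the 5 was 0.72, and that of all genes -0.08.

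Set against untreated rats, omeprazole arrays gave 0 subunit calls by limma, where 4.18% of all genes were called, and 0 at an unadjusted p below 0.05, where 15.5% were. Cybb lay at -0.71 ± 0.40 and Ncf1 at -0.58 ± 0.34, whereas Ncf4 lay at 0.46 ± 0.33, Cyba at 0.12 ± 0.35 and Rac2 at -0.01 ± 0.22 (limma, adjusted p = 0.397, 0.422, 0.507, 0.881 and 0.98). The omeprazole arrays lay within the span of the untreated arrays for Cybb, Cyba and Ncf1. Without untreated array 1 Ncf1 passed (-0.98, adjusted p = 0.04), where 5.46% of all genes were called lower.

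STW5 arrays were also compared with untreated and with sham arrays. For Cybb the 4 arrays at 0.5 ml/kg had levels of -0.62, 0.08, 0.13 and -0.89, and those at 2 ml/kg -0.47, -1.52, -0.35 and -1.33. Of these 8 arrays 3 lay below all untreated arrays, and none lay above them. The mean of both doses lay at -0.96 ± 0.34 from untreated (limma, adjusted p = 0.485) and at -0.03 ± 0.34 from sham (95% interval -0.75 to 0.68).

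For Ncf1 the levels were 4.16, 3.81, 4.48 and 4.08 at 0.5 ml/kg, and 3.77, 3.70, 4.24 and 3.59 at 2 ml/kg. All 8 arrays lay above all sham arrays, an order that 1.18% of all genes had, although the lowest (3.59) was close to the highest sham array (3.57). The changes were -0.75 ± 0.29 from untreated and 0.54 ± 0.29 from sham (limma, adjusted p = 0.485 and 0.659).

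Ncf4 had levels of 4.24, 3.66, 4.92 and 3.96 at 0.5 ml/kg, and 4.25, 3.91, 4.03 and 2.84 at 2 ml/kg. Of these 8 arrays 7 were above all sham arrays and 1 was below them all. The changes were -0.06 ± 0.28 from untreated and 0.72 ± 0.28 from sham (limma, adjusted p = 0.948 and 0.528). Cyba lay at -0.40 ± 0.31 from untreated and 0.55 ± 0.31 from sham, with 7 of 8 arrays above sham. Rac2 lay at 0.04 ± 0.19 and 0.12 ± 0.19.

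No subunit passed for STW5, nor did any of the 15232 genes (0%) for the mean of both doses against untreated or against sham. At an unadjusted p below 0.05, Cybb and Ncf1 were lower than in untreated rats, where 3.85% of all genes were, and Ncf4 was higher than in sham rats, where 4.81% of all genes were. Without untreated array 1, Ncf1 passed for the mean of both doses (-1.15, limma, adjusted p = 0.0417), where 0.578% of all genes were called lower. Taken alone against untreated rats, STW5 at 2 ml/kg gave a median of -0.63 over the subunits and at 0.5 ml/kg -0.17, where all genes had medians of 0.14 and 0.02. No subunit passed at 2 ml/kg, as with 0% of all genes. Without untreated array 1, 3 of 5 did, where 3.6% of all genes were called lower. Between the doses, all 5 subunits were lower at 2 than at 0.5 ml/kg, by log2 changes of -0.59 for Cybb, -0.46 for Cyba, -0.44 for Ncf4, -0.30 for Ncf1 and -0.12 for Rac2. None of these passed (limma, adjusted p = 0.331 to 0.751), as with 0% of all genes. At an unadjusted p below 0.05, 0 of 5 did, where 26.6% of all genes did. The 2 doses shared a slide. With the dose labels exchanged, as the conflict in the labels allows, each of these changes has the opposite sign.

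**Figure D3:**
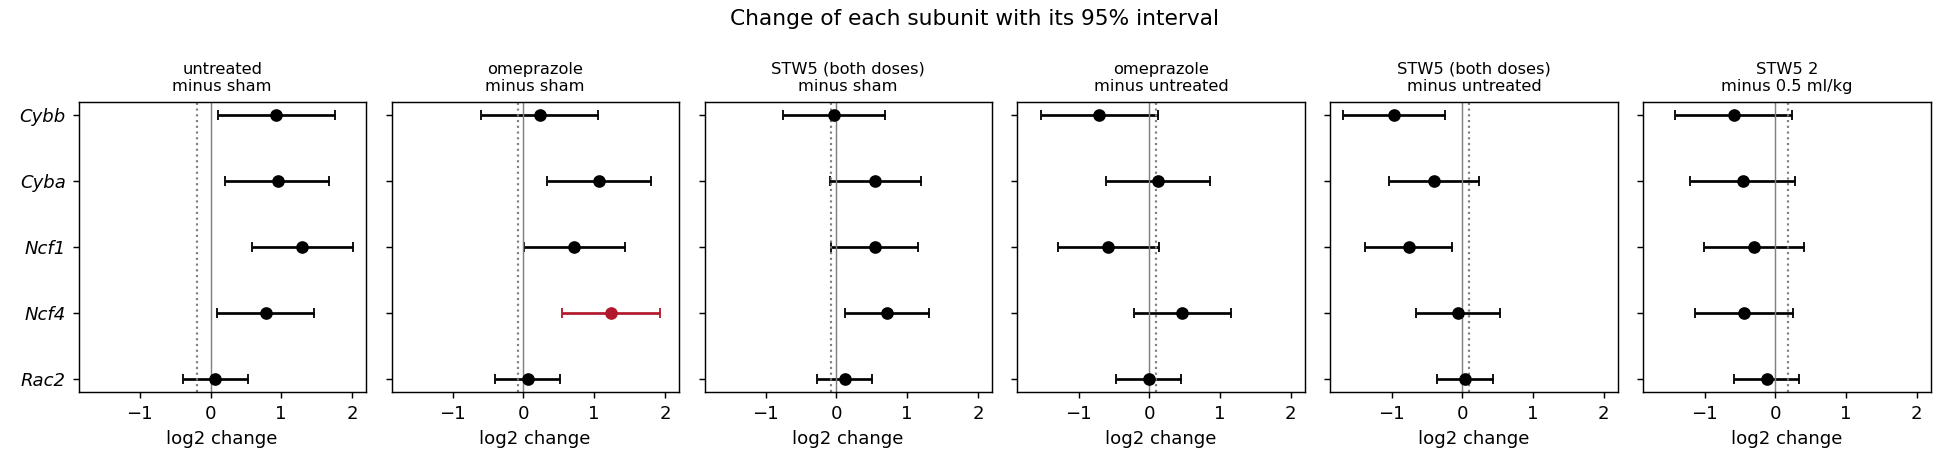
Log2 change of each subunit with its 95% interval in 6 comparisons, all fitted on the same 20 arrays. The dotted line is the median of all 15232 genes, and red marks an adjusted p below 0.05 by limma. Ncf4 in omeprazole minus sham is the one red point, and Rac2 lies within 0.12 of 0 in all 6.

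The order of group means differed between subunits. Cybb ran untreated (0.34 ± 1.01), STW5 0.5 ml/kg (-0.32 ± 0.51), omeprazole (-0.36 ± 0.16), sham (-0.59 ± 0.24) and STW5 2 ml/kg (-0.92 ± 0.59), as mean ± SD of 4. Ncf4 ran omeprazole (4.50 ± 0.30), STW5 0.5 ml/kg (4.20 ± 0.54), untreated (4.04 ± 0.56), STW5 2 ml/kg (3.76 ± 0.63) and sham (3.26 ± 0.10). Untreated rats thus had the highest mean of Cybb and also of Ncf1 (4.73 ± 0.93), and omeprazole rats that of Ncf4 and of Cyba (6.20 ± 0.44). For Cybb and Ncf4, neighbours in the order differed by less than the larger of their SDs, and their arrays overlapped.

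To ask whether subunits differed in their change, the difference of each pair of subunits was taken within every array, and the groups were compared by an exact two-sided permutation test. These 50 tests, 10 pairs in 5 comparisons, were added after the values were seen, and 0 passed after adjustment (lowest adjusted p = 0.101). For 4 against 4 arrays the smallest possible p is 0.0286, which 11 of them reached. After adjustment over 50 tests such a p can pass only if most of the tests are as low. That 0 passed therefore does not show that the subunits changed alike. The change of Ncf1 minus that of Ncf4, each against sham, was 0.52 in untreated rats and -0.52 in omeprazole rats. Between omeprazole and untreated rats the difference was -1.04, and all 4 omeprazole arrays lay below all untreated arrays (exact p = 0.0286, adjusted p = 0.101). The Cybb change was below that of Ncf4 by -1.17 for omeprazole minus untreated, again with all 4 arrays apart.

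Over the 20 arrays Cybb, Cyba, Ncf1 and Ncf4 were correlated with each other, and no correlation with Rac2 passed. These relations, with those to cell markers and to the array's signal, made a family of 25. Cyba and Ncf1 correlated at a Pearson r of 0.862 (p = 2e-05 by permutation, 0.000125 after adjustment). Spearman's rho was 0.908 (p = 1e-05 by permutation, 8.33e-05 after adjustment), and no lower p than 1e-05 can come from these permutations. Within groups r was 0.875, and without the 2 most extreme arrays 0.805. Cyba and Ncf4 had r = 0.831 (permutation, adjusted p = 0.000125) and rho = 0.881 (permutation, adjusted p = 0.000125), with 0.725 within groups and 0.855 without the 2 extremes. The weakest pair among these 4 was Cybb and Ncf4, with r = 0.511 (permutation, adjusted p = 0.0387), rho = 0.662 (permutation, adjusted p = 0.00468) and 0.508 without the 2 extremes. Cybb and Ncf1 had r = 0.81 (permutation, adjusted p = 0.000458), rho = 0.719 (permutation, adjusted p = 0.00169) and 0.489 without the 2 extremes. Rac2 had r of 0.0102 to 0.263 with the other 4 (permutation, adjusted p = 0.328 to 0.966), and its r with Ncf1 was 0.21 on all arrays and 0.541 without the 2 extremes. Ncf4 and Rac2 are both on chromosome 7, and in GRCr8 257931 bases lie between them.

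Monocyte markers moved with Cybb, Cyba, Ncf1 and Ncf4, and neutrophil markers most closely with Ncf4. No correlation of either list with Rac2 passed. Among the 13 monocyte markers tested, summed levels relative to the array's 75th percentile ranged over 38.3 to 77.5 in omeprazole, 42.7 to 99.9 in STW5 0.5 ml/kg, 30.4 to 55.1 in STW5 2 ml/kg, 29.6 to 141 in untreated and 27.3 to 36.1 in sham rats. Among the 17 neutrophil markers the ranges were 260 to 567, 231 to 547, 115 to 461, 143 to 977 and 106 to 213 in the same order of groups. Bright markers weigh most in these sums. Of the monocyte markers 9 of 13 were higher in untreated than in sham rats (median 0.57), and of the neutrophil markers 13 of 17 (median 0.74). Of all genes 37.9% were higher, and 0 of these markers passed as higher or lower. With omeprazole against sham rats 8 of 13 monocyte markers were higher (median 0.13), where 41.8% of all genes were. Mean monocyte marker levels were -0.17 to 0.1 with omeprazole and -0.41 to -0.05 in sham rats, which overlap. Without untreated array 1 the untreated minus sham counts of higher markers were 10 and 13. Of these 5 and 4 passed, as did 1 lower monocyte marker. Without array 2 the counts were 10 and 9, with 0 passed. Without both arrays they were 10 and 9, with 6 and 3 passed as higher and 1 of each list as lower. Of all genes 5.85% were called higher without array 1 and 9.66% without both. No tested marker of these lists was below background on every array of a group. In whole blood, fewer cells of a type and less RNA per cell cannot be told apart.

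Cybb followed the mean level of the monocyte markers most closely, with a Pearson r of 0.923 and a Spearman rho of 0.866 (p = 1e-05 by permutation for both, 0.000125 and 8.33e-05 after adjustment), an r of 0.943 within groups and 0.83 without the 2 extreme arrays. This relation and the other 4 to monocyte markers were added after the data were seen. With neutrophil markers Cybb had r = 0.278 and rho = 0.208 (permutation, adjusted p = 0.312 and 0.47). Ncf4 was the subunit closest to neutrophil markers, with r = 0.733 and rho = 0.69 (permutation, adjusted p = 0.000917 and 0.00252), 0.568 within groups and 0.70 without the extremes. Its r with monocyte markers was 0.643 and its rho 0.729 (permutation, adjusted p = 0.00437 and 0.00131). Untreated array 4 had the highest Cybb, Cyba and Ncf1 of all 20 arrays and the highest mean monocyte marker level (1.09). Its mean neutrophil marker level was -0.77, inside the sham range of -1.35 to -0.37. Its Ncf4 level of 4.38 also lay above all sham arrays (3.14 to 3.37).

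With the monocyte marker level as a covariate, added after seeing the data, the untreated minus sham change was 0.0 for Cybb, 0.23 for Cyba, 0.63 for Ncf1 and 0.23 for Ncf4 (limma, adjusted p = 1, 0.817, 0.794 and 0.835). With neutrophil markers as the covariate it was 0.80, 0.86, 1.11 and 0.55 (limma, adjusted p = 0.223, 0.176, 0.116 and 0.244). For omeprazole minus sham the Ncf4 call held with monocyte markers (1.01, limma, adjusted p = 0.0393) and not with neutrophil markers. The array's own signal moved with the subunits as well: log2 of the 75th percentile had r = 0.654 with Cyba and 0.552 with Cybb (permutation, adjusted p = 0.00468 and 0.0222), and rho of 0.65 and 0.629 (permutation, adjusted p = 0.00477 and 0.00683). Its part in the changes was not tested.

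**Figure D4:**
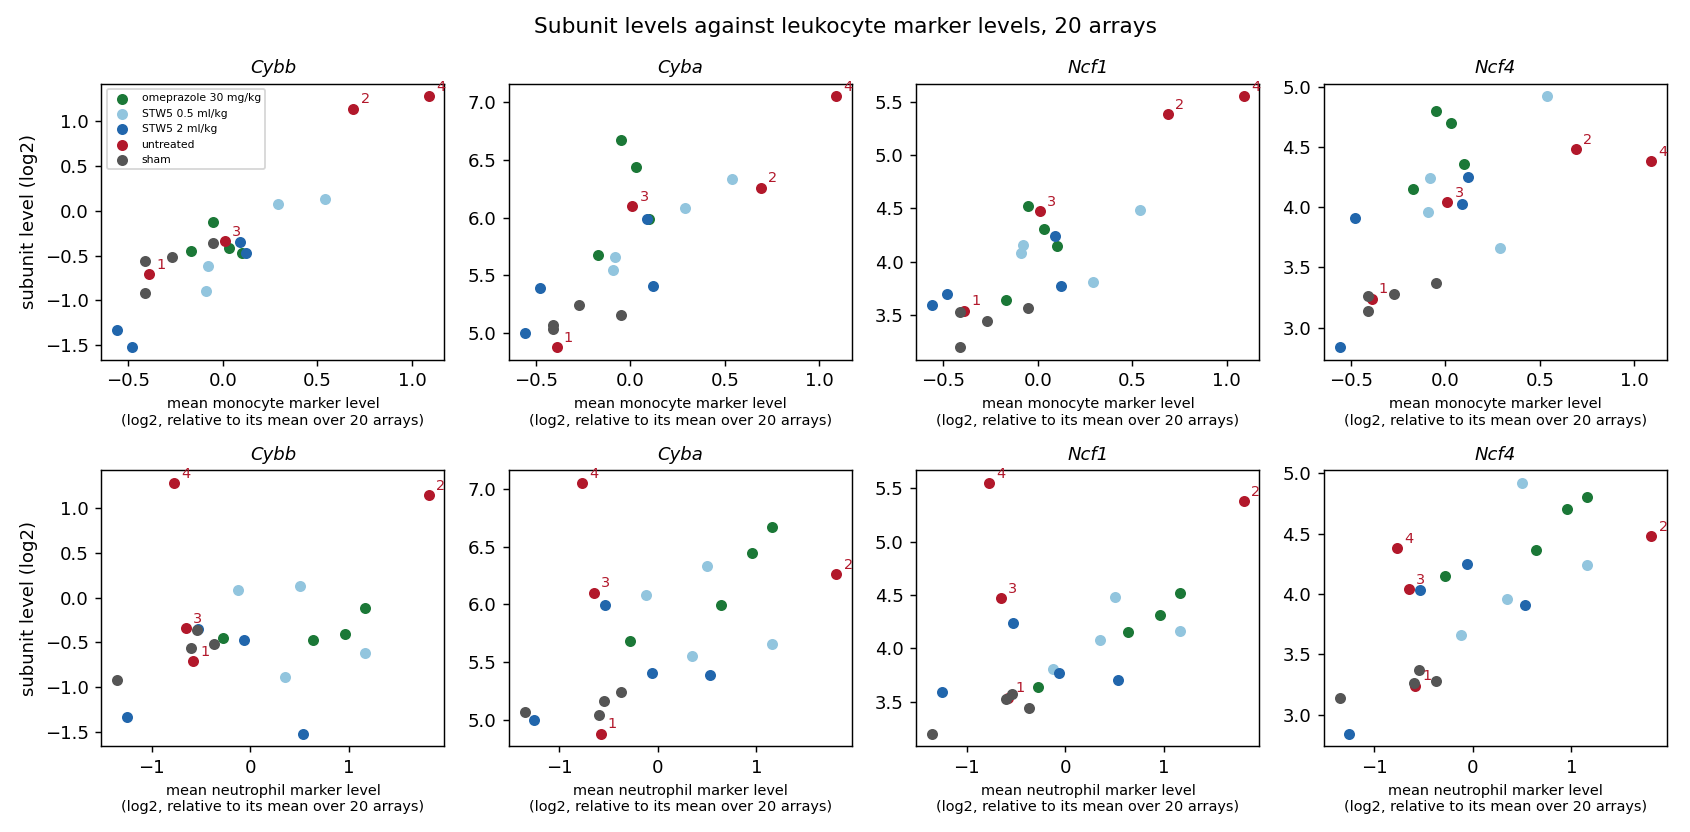
Level of Cybb, Cyba, Ncf1 and Ncf4 on each of 20 arrays (y axis, log2) against the mean level of the monocyte markers (top row) and of the neutrophil markers (bottom row), each relative to its mean over the arrays. Digits mark the untreated rats. Cybb lies near a line against monocyte markers (r = 0.923). Untreated rat 4 lies far from the others against neutrophil markers, less far in Ncf4, where it is still above all sham rats.

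The gene patterns most like the 5 subunits, by the mean Pearson r over 20 arrays, were those of Grn, the lysosomal growth factor progranulin (mean r = 0.735), Dhdds, an enzyme of dolichol synthesis (0.728), Csf2ra, the GM-CSF receptor chain that primes the burst (0.727), Npr1, a natriuretic peptide receptor (0.724), and Fuca1, a lysosomal fucosidase (0.723). With each array set against its group mean, Csf2ra, Grn, Npr1 and Dhdds were again among the first 5, with Anxa2. Grn had r = 0.969 with Cyba and 0.228 with Rac2.

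Among the partners of the complex, 6 of 7 listed genes were tested and 0 passed in untreated against sham rats (1 at an unadjusted p below 0.05), with 3 higher and 3 lower and a median of 0.10. Rac1, the widely expressed Rac, lay at 0.21 ± 0.31, Cybc1, a chaperone of the cytochrome, at -0.02 ± 0.27, Rap1a, a small GTPase found with the cytochrome, at -0.56 ± 0.44, and Rap1b, its close relative, at 0.28 ± 0.28. Of the 6 partners 0 passed without untreated array 1, where 12% of all genes did, or without array 2. Without both arrays 2 passed, where 29% of all genes did, and Rap1a lay at -1.50 (limma, adjusted p = 0.0133).

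Receptors that trigger or prime the burst lay mostly higher. In untreated against sham rats 15 of 16 were higher, with a median of 1.07, where 37.9% of all genes were higher. By limma 0 passed, and 10 were higher at an unadjusted p below 0.05, where 8.15% of all genes were. Itgam, the alpha chain of complement receptor 3, lay at 1.57 ± 0.48, C5ar1, the C5a receptor, at 1.39 ± 0.38, Fcgr1a, an IgG receptor, at 0.87 ± 0.42 and Fpr1, a formyl peptide receptor, at 0.55 ± 0.41. Without untreated array 1, 8 of the 16 receptors passed as higher, where 12% of all genes passed in either direction, with Itgam at 2.04 and C5ar1 at 1.85 (limma, adjusted p = 0.0145 and 0.00392). Without array 2 alone 0 passed, and without both arrays 10 did, where 29% of all genes passed. With omeprazole 15 of 16 were again higher than in sham rats, with a median of 0.99. Of all genes 41.8% were higher, and their median was -0.08. By limma 1 of the 16 passed as higher, where 0.742% of all genes did. It was Clec7a, the beta-glucan receptor, which rose by 1.69 ± 0.43 (limma, adjusted p = 0.0236). These comparisons share the sham arrays.

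Kinases and exchange factors upstream were split, with 12 of 19 higher in untreated than in sham rats, a median of 0.18 and 0 passed. At an unadjusted p below 0.05, 2 of the 19 did, where 18.3% of all genes did. Prkcd, a kinase that phosphorylates p47phox, lay at 0.59 ± 0.30, Prkcb, another, at -0.48 ± 0.39, and the Rac exchange factors Vav1 and Prex1 at 0.05 ± 0.23 and -0.18 ± 0.26. Without untreated array 1, 1 of the 19 passed as higher and 1 as lower, where 12% of all genes passed in either direction. Without array 2 alone 0 passed. Without both arrays 7 passed as higher, where 9.66% of all genes did, and Prkcd lay at 1.18 (limma, adjusted p = 0.0117). Of 19, only Irak4, a kinase of Toll-like receptor signalling, passed in any comparison with omeprazole. It was at least 1.54-fold lower than in untreated rats (limma, adjusted p = 0.0103), where 3.83% of all genes were called lower. For Irak4, 0 omeprazole and 2 untreated arrays were well above background. The fold allows for background by setting dim arrays to the lowest signal called above it. Irak4 passed against sham too (limma, adjusted p = 0.0322), where 3.99% of all genes were called lower. No array of either group was above background there, and no fold is given.

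Transcription factors known to act on the subunit genes gave 6 of 10 higher in untreated than in sham rats, with a median of 0.18 and 0 passed. At an unadjusted p below 0.05, 2 of the 10 did, where 18.3% of all genes did. Spi1, which encodes PU.1, lay at 0.72 ± 0.34 and at 1.04 ± 0.34 with omeprazole against sham (limma, adjusted p = 0.273 and 0.0959). Irf8 lay at 0.49 ± 0.45, Cebpe at 0.39 ± 0.36 and Cebpa at 0.06 ± 0.37 in untreated against sham rats, and the background limit was passed for Cebpa by 3 untreated and 1 of the sham arrays. Without untreated array 1, 1 of the 10 passed, where 12% of all genes did, and without array 2 alone 0. Without both arrays 3 passed, where 29% of all genes did, and Irf8 lay at 1.52 (limma, adjusted p = 0.00875).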

How the data were processed

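Blood RNA of 20 rats was labelled with Cy3 and hybridised to 1-colour Agilent arrays, per the labels. The deposited scanner files hold spot intensity values from Agilent Feature Extraction 10.7.3.1, background-subtracted per the file headers. The value table that the authors deposited gives a ratio per spot, its processed signal over the array's median, as found by setting it against the scanner files. Of its 20 columns, 12 follow their own array and 8, all STW5, that of the other dose, and it served as an alternative.

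Spots of a probe were averaged, log2 levels were taken relative to the array's 75th percentile over non-control spots, probes were kept if 4 or more arrays had them well above background, and each gene was read by its brightest probe. Group means were fitted with limma 3.58.1 in R 4.3.3 on all 20 arrays, two-sided, with Benjamini-Hochberg adjustment over 15232 genes. The number of arrays limits the precision. Nothing says how the rats were housed or bred, and p-values measure only the spread between these samples. Permutation tests used 100000 draws unless exact. The subunits and gene lists were chosen with earlier results of these data known. Named genes were the 5 subunits in every comparison, the first 4 tested genes of each list, and the 5 genes with the highest mean correlation. Irak4, Clec7a and the genes named beyond these were chosen after their values were seen. The scripts were tested on simulated data. Not every pair of same-numbered arrays deviated together (19 of 40 correlated over 0.1), so the numbers were not used as pairs. One listed gene is not reported here.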

Additional observations from a re-analysis of the deposited data

How the results depend on the processing

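Values here are log2 changes, and those of the subunits together are medians over the 5. The monocyte covariate and the removal of untreated arrays 1 and 2 together were added after seeing the data. Medians moved as follows. Untreated minus sham gave 0.23 with the monocyte covariate. Omeprazole minus sham gave 1.36 with spike-in scaling, 0.34 with the neutrophil covariate and 0.44 with the monocyte covariate. STW5 2 ml/kg minus untreated gave -1.64 with spike-in scaling and -1.41 with array weights, and both doses minus untreated -1.13 with array weights. STW5 2 minus 0.5 ml/kg gave -1.71 with spike-in scaling, 0.59 in the authors' value table and 0.44 with the dose labels exchanged. Spike-in scaling moved the median of all genes too. It was 0.37 for untreated minus sham, 0.56 for omeprazole minus sham, -0.87 for STW5 2 ml/kg minus untreated and -1.08 between the STW5 doses. Between the doses 7736 genes (50.8%) and all 5 subunits passed with this scaling.

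Single genes turned sign under some alternatives, also where the change was not near 0, as for Fpr1 (0.55) and Prkcb (-0.48) in untreated minus sham. Ncf4 in omeprazole minus sham, the one subunit call, kept its sign under every alternative run. Exchanged labels turn each change between the STW5 doses by construction, and the value table's STW5 columns follow the other dose's arrays. The cause of the other turns was not tested. For untreated minus sham, Cybc1 gave 0.22 with normexp and with array weights, 0.04 with quantile normalization and in the authors' value table, 0.12 with median scaling, 0.54 with spike-in scaling, 0.15 with the neutrophil covariate and 0.41 without untreated arrays 1 and 2. Spike-in scaling gave 0.0 for Rap1a, 0.32 for Noxo1, 0.09 for Prkcb, 0.38 for Prex1 and 0.27 for Mpo, and Prkcb was 0.05 without untreated arrays 1 and 2. Array weights gave -0.08 for Rap1b, -0.07 for Rac1, -0.06 for Fpr1 and -0.03 for Cebpa. Cebpa was -0.25 with normexp, -0.19 with the neutrophil covariate and -0.42 with the monocyte covariate, which also gave -0.33 for Cebpe and 0.0 for Vav1 and Cybb.

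For omeprazole minus untreated, Cyba was -0.34 with array weights and -0.38 without untreated arrays 1 and 2, and Rac2 was 0.06 with spike-in scaling, 0.0 in the value table and 0.02 with the neutrophil covariate. For omeprazole minus sham, Cybb was -0.03 with the neutrophil and -0.16 with the monocyte covariate. For both STW5 doses minus untreated, Rac2 was -0.12 with normexp, -0.09 with quantile normalization, -0.02 with median scaling, -0.34 with spike-in scaling, -0.01 with array weights and -0.19 without untreated arrays 1 and 2, and the monocyte covariate gave 0.02 for Cyba and 0.26 for Ncf4. Against sham, Cybb on STW5 was 0.06 with normexp, 0.05 with median scaling, 0.15 with spike-in scaling and 0.02 in the value table. Between the STW5 doses, the value table gave 0.74 for Cybb, 0.61 for Cyba, 0.45 for Ncf1, 0.59 for Ncf4 and 0.27 for Rac2, and exchanged labels gave 0.59, 0.46, 0.30, 0.44 and 0.12. Ncf1 was 0.09 with the monocyte covariate and Rac2 0.01 with array weights.

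With each array left out in turn, the following ranges held both signs. For untreated minus sham they were -0.20 to 0.33 for Cebpa, -0.03 to 0.57 for Cebpe, -0.22 to 0.28 for Cybc1, -0.76 to 0.09 for Prkcb, -0.14 to 0.19 for Vav1 and -0.07 to 0.19 for Rac2. For omeprazole they were -0.27 to 0.45 for Cyba and -0.13 to 0.11 for Rac2 against untreated, and -0.08 to 0.18 for Rac2 against sham. For both STW5 doses they were -0.33 to 0.09 for Ncf4 and -0.07 to 0.15 for Rac2 against untreated, and -0.14 to 0.07 for Cybb and -0.03 to 0.19 for Rac2 against sham. The median over the subunits ranged over -0.27 to 0.11 for omeprazole minus untreated and -0.57 to 0.15 for STW5 0.5 ml/kg minus untreated, which hold both signs, -1.03 to -0.30 for STW5 2 ml/kg minus untreated, -0.80 to -0.07 for both doses minus untreated, -0.53 to -0.20 between the doses, 0.62 to 1.28 for untreated minus sham, 0.60 to 0.89 for omeprazole minus sham and 0.46 to 0.58 for both doses minus sham.

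Replicate numbers were not taken to pair the samples: deviations of same-numbered arrays from their group means correlated at -0.44 to 0.59 (median 0.09), with 19 of 40 pairs over 0.1, against -0.65 to 0.59 (median -0.04) and 37 of 120 for arrays of different number. With the replicate block the untreated minus sham median was 0.93 again, the Ncf4 call in omeprazole minus sham held (adjusted p = 0.0435), and 0 genes passed in untreated minus sham against 1 without it. With array weights, whose estimation stopped before convergence, 6037 genes and 4 subunits passed in untreated minus sham.

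The number of genes that passed moved by over 1.5 times as follows, and whether the same genes passed was not examined. Untreated minus sham, with 1 gene, gave 1831 without untreated array 1, 4414 without untreated arrays 1 and 2, and 0 under most other alternatives. Omeprazole minus untreated, with 637, gave 410 with spike-in scaling, 5773 with array weights, 390 with only the compared groups in the fit, 1165 without untreated array 1 and 2040 without untreated arrays 1 and 2. Omeprazole minus sham, with 720, gave 350 with spike-in scaling, 5471 with array weights, 1474 with only the compared groups, 469 without sham array 1, and 448 and 436 without omeprazole array 2 or 4. STW5 2 ml/kg minus untreated, with 0, gave 3699 with spike-in scaling, 2555 with array weights, 3083 without untreated array 1, 1027 without array 3 of that dose and 4580 without untreated arrays 1 and 2, and at most 1 otherwise. Both doses minus untreated, with 0, gave 998 with array weights and 133 without untreated array 1, and at most 1 otherwise, and both doses minus sham, with 0, gave 290 with array weights. STW5 0.5 ml/kg minus untreated, with 0, gave 743 with array weights and at most 5 otherwise. STW5 2 minus 0.5 ml/kg, with 0, gave 2306 with normexp, 50 with quantile normalization, 62 with median scaling, 7736 with spike-in scaling, 4970 with no filter, 121 with the stricter filter, 535 with the replicate block, 533 with array weights, 99 in the value table, 412 with the neutrophil covariate, 252 and 133 without array 1 or 4 of the lower dose and 818 without array 3 of the higher, with at most 1 under the alternatives not named.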

Other observations

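Of other NADPH oxidases and their subunits 3 of 9 listed genes were tested, and these were well above background on all 4 arrays of each group. Nox1, Nox3, Nox4, Duox2, Duoxa1 and Duoxa2 did not pass the filter on dim probes. Duox1, a dual oxidase, lay at -0.59 ± 0.43, Noxa1, an activator of Nox1, at -0.65 ± 0.39 and Noxo1, its organiser, at -0.24 ± 0.28 in untreated against sham rats. Against untreated rats the same 3 genes lay at 1.38 ± 0.43, 0.97 ± 0.39 and 0.90 ± 0.28 on STW5 at 2 ml/kg (limma, adjusted p = 0.1, 0.148 and 0.1). Of all genes 60.1% were higher in that comparison. At an unadjusted p below 0.05, 18.4% of all genes were higher, as were these 3. The 5 phagocyte subunits were lower, and the dose labels are in conflict.

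Enzymes that use or remove the oxidants were split, with 6 of 11 tested higher in untreated than in sham rats, a median of 0.26. By limma 0 passed. At an unadjusted p below 0.05, 2 were higher and 2 lower, where 8.15% and 10.1% of all genes were. Catalase (Cat), which red cells carry, lay at -1.44 ± 0.52 and glutathione peroxidase 1 (Gpx1) at -1.13 ± 0.46. Cat lay at -1.79 without untreated array 1 (limma, adjusted p = 0.0417), and without untreated arrays 1 and 2 Cat lay at -2.45 and Gpx1 at -2.02 (limma, adjusted p = 0.00854 and 0.0102). Of the 11 genes 2 passed without array 1, where 12% of all genes did, and 0 without array 2. Without both arrays 5 passed, where 29% of all genes did. Mitochondrial superoxide dismutase (Sod2) lay at 0.84 ± 0.47 and Mpo, the neutrophil peroxidase, at -0.29 ± 0.33, with 4 untreated arrays and 1 sham array of Mpo well above background. Mean erythroid marker levels ranged over -1.74 to 0.47 in untreated rats, against 0.28 to 0.99 in sham rats, and their part in these values was not tested.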
